A study of Mus musculus with 23 samples.

Results

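Trim33-null embryoid bodies were compared with E14 embryonic stem cells, both treated with activin A, over the genes of an RNA-seq table. The comparison used 4 of the 23 samples of the series, 2 libraries for each group. Of 29032 gene symbols in the table, 11070 had at least 1 FPKM (a level corrected for transcript length and for sequencing depth) in at least 2 of these 4 libraries and were tested. The embryoid bodies (EBs) were made from ESCs with no functional Trim33 on a C57Bl/6J background, grown in suspension in 15% serum without leukaemia inhibitory factor (LIF), and collected at day 2.5. The embryonic stem cells (ESCs) were of the mouse line E14, grown on gelatin in 15% serum with LIF. Both groups received activin A at 50 ng/ml for 2 h, so activin is not a difference between them. Cell state, LIF, culture format, cell line, genetic background and Trim33 genotype all changed together, and their contributions cannot be told apart in this comparison. The 2 wild-type (WT) EB libraries on the C57Bl/6J background, under the same activin treatment, were set beside them. The 2 null and 2 WT EB libraries given SB431542, an inhibitor of the activin and Nodal type I receptors, in place of activin serve only for a few values side by side and for a fit of all 10 RNA-seq libraries. The labels disagree on that inhibitor, with a dose of 10 μM or 10 mM and a time of 2 h or 1 h. Both ESC samples are wild type by their genotype label and column name, although LKO appears in their titles. The numbers 1 and 4 in the titles of the Trim33-null samples could not be matched to column numerals I and II, and I and II here are those of the columns. The labels do not say how the null allele was made, how many clones were used, or whether the libraries within each group were grown as separate cultures.

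Mouse ESCs grown with LIF are held in a naive state, in which LIF activates STAT3 through its receptor and STAT3 feeds a circuit of transcription factors that includes Esrrb, Klf4 and Tfcp2l1. When LIF is withdrawn and cells aggregate, naive factors decline while Pou5f1 and Sox2 persist, formative and primed epiblast genes are switched on, and some cells begin to express primitive streak genes. Activin and Nodal bind the same receptors and activate SMAD2 and SMAD3, which work with SMAD4 and FOXH1. TRIM33, also called TIF1gamma, is a chromatin reader that binds activated SMAD2 and SMAD3 and is known in mouse EBs for its role at mesendoderm genes.

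Trim33 stood at 2.23 and 2.69 FPKM in the Trim33-null libraries I and II, at 6.6 and 6.25 FPKM in ESC libraries I and II, and at 11.4 and 10.1 FPKM in WT EBs. Both null libraries lay below all ESC and WT EB libraries, and the residual value does not show which exons it came from. The log2 difference from ESCs was -1.11 ± 0.10 (SE; limma adjusted p = 0.0013). Because ESCs held less Trim33 than WT EBs, the comparison with ESCs shows a smaller deficit than that with WT EBs, -1.76 ± 0.10 (limma adjusted p = 0.00267). Of the other TIF1 family genes, Trim28, a corepressor that silences retroelements, fell by 0.97 on the log2 scale, and Trim24 rose by 0.35 (limma adjusted p = 0.00367 and 0.0195). The limma adjusted p of Trim24 was 0.144 and 0.207 without ESC library I or II. Summed FPKM of the 4 libraries ran from 238231 to 251652. Pearson correlations of log2 values were 0.998 between the ESC libraries, 0.985 between the null libraries and 0.907 to 0.932 between null and ESC libraries. The groups were therefore not equally tight: 109 genes differed by at least 1 on the log2 scale between the null libraries, 70 of them higher in library II, against 2 between the ESC libraries and 16 between the WT EB libraries.

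Tested with limma on log2(FPKM + 1), 5744 of 11070 genes differed between Trim33-null EBs and ESCs at an adjusted p under 0.05. Of these, 2819 rose (25.5% of genes tested) and 2925 fell (26.4%), and the median over all genes tested was -0.00478. Each count of list members called below stands beside these shares, and a count near them is no result about its list. Which direction had more calls depended on the settings, with 1218 higher and 1753 lower under a filter of 5 FPKM, 4148 higher and 3179 lower with no filter, and 2880 higher and 2815 lower after median-of-ratios scaling. With a log2 difference of at least 1 as well, 583 rose (5.27%) and 501 fell (4.53%). Every difference given is between log2(FPKM + 1) values, so for genes near 1 FPKM it is smaller than the log2 ratio of the levels. A gene below 1 FPKM in both libraries of a group was tested only if both libraries of the other group reached 1 FPKM. The direction of such a gene was set by the filter, and its call is no support for that direction. This holds for every such gene below, also where it is not repeated, and for its part in list counts and medians. Leaving out ESC library I or II left 1994 or 1991 calls, and leaving out null library I or II gave 7608 or 7026. A permutation test of 2 libraries against 2 cannot go below a two-sided p of 0.333, so these calls rest on a spread pooled over groups and genes, which may be technical. In bulk RNA, fewer cells of a type and less RNA per cell cannot be told apart.

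**Figure D1:**
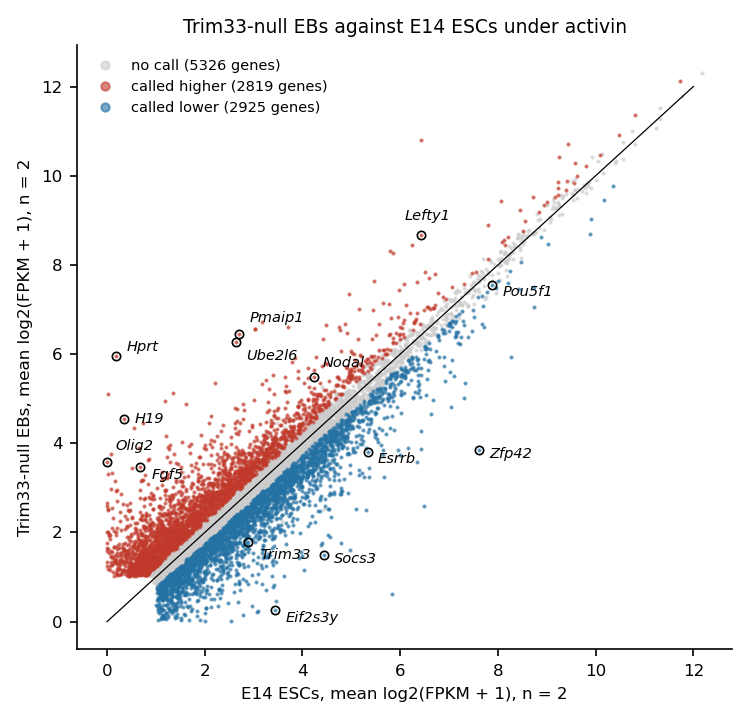
Mean log2(FPKM + 1) of 11070 genes in the 2 ESC libraries (horizontal) and the 2 Trim33-null EB libraries (vertical), with the line of equality. Red and blue points are the 2819 genes called higher and the 2925 called lower. Zfp42 and Socs3 lie far below the line, and Hprt, H19 and Lefty1 far above it.

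Most naive pluripotency genes fell. Of 20 tested, 15 fell and 0 rose, with a median of -1.38. Zfp42, which encodes the zinc finger protein REX1 and is a classic marker of naive cells, stood at 193 and 198 FPKM in ESCs and at 15.2 and 11.9 FPKM in null EBs. The groups were far apart, a 14.4-fold difference with a log2 difference of -3.76 ± 0.13 (SE; limma adjusted p = 0.000289). Esrrb, an orphan nuclear receptor of the naive circuit, stood at 40.9 and 37.8 FPKM in ESCs and at 13.3 and 12.5 FPKM in null EBs (-1.54 ± 0.09, limma adjusted p = 0.00057). Klf4 went from 13.3 and 12.7 to 3.38 and 4.7 FPKM, and Tfcp2l1 from 15 and 13.8 to 3.28 and 2.68 FPKM. No null library reached an ESC library for any of these factors. Falls were also called for Fbxo15 (-2.27), Tcl1 (-1.91), Klf5 (-1.82), Fgf4 (-1.65), Nr0b1 (-1.47), Prdm14 (-1.31) and Klf2 (-1.23). Nanog, which maintains self-renewal, differed less: 135 and 144 FPKM in ESCs against 105 and 76 FPKM in null EBs (-0.64 ± 0.16, limma adjusted p = 0.025). The limma adjusted p of Nanog was 0.106 and 0.14 without ESC library I or II, and that of Dppa4, which fell by 0.55, was 0.0737 and 0.106.

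The 5 naive genes with no call were Tbx3, Dppa2, Dppa3, Dppa5a and Pecam1. Tbx3, a T-box factor that supports self-renewal, stood at 4.82 and 4.45 FPKM in ESCs, 3.54 and 4.21 FPKM in null EBs, and 1.1 and 1.07 FPKM in WT EBs. Null EBs therefore stood between the other groups and nearer to ESCs. Dppa2, a SAP-domain chromatin factor of pluripotent cells, stood at 36.1 and 34.6, 31.4 and 30.1, and 13.4 and 16.1 FPKM in the same order. Whether the difference from ESCs was another in null than in WT EBs was tested as null minus WT EBs, since both share the same ESC libraries. The EB lines are not shown to differ in Trim33 alone. The genes tested were the same, filtered on null and ESC libraries, so a gene high only in WT EBs was left out. A gene below 1 FPKM in all ESC and WT EB libraries passed through null EBs alone, which set its direction against WT EBs. In a fit of the 6 activin libraries, 539 genes were higher in null EBs (4.87%) and 486 lower (4.39%). That fit pools in the tight ESC pair, and the 4 EB libraries alone gave 39 higher (0.352%) and 8 lower (0.0723%). With columns rescaled by median-of-ratios factors, the 6-library split was 592 higher and 333 lower, and with all 10 libraries in the fit it was 607 higher and 821 lower. Of the naive genes, 8 were above WT EBs in the 6-library fit and 0 below, and 19 of 20 had a positive difference. The 8 were Zfp42, Klf4, Esrrb, Nr0b1, Tbx3, Dppa5a, Dppa2 and Dppa4. Only Tbx3 (1.22 ± 0.09) was also called from the 4 EB libraries alone, with limma adjusted p = 0.00492 and 0.0442. The list median against ESCs was -1.81 in WT EBs, beside -1.38 in null EBs.

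The promoter of Zfp42 is shown because it fell furthest among the naive genes. The octamer ATGCAAAT, bound by POU factors such as POU5F1, was searched on both strands from 250 bases before to 50 bases after the gene start. It occurs in 1 of the 11 naive genes matched to a promoter and in 1.75% of 27025 promoters. The sequence is from RefSeq (GRCm38.p6), chr8:43306960-43307259, minus strand, written 5′ to 3′ with the octamer (on the opposite strand, from base 65) in capitals.
Zfp42: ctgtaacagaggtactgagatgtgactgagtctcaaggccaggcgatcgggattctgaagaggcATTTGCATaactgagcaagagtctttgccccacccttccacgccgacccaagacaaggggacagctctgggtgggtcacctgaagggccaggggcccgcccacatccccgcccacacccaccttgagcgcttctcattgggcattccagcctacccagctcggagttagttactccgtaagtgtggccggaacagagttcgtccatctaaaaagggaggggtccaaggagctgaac

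**Figure D2:**
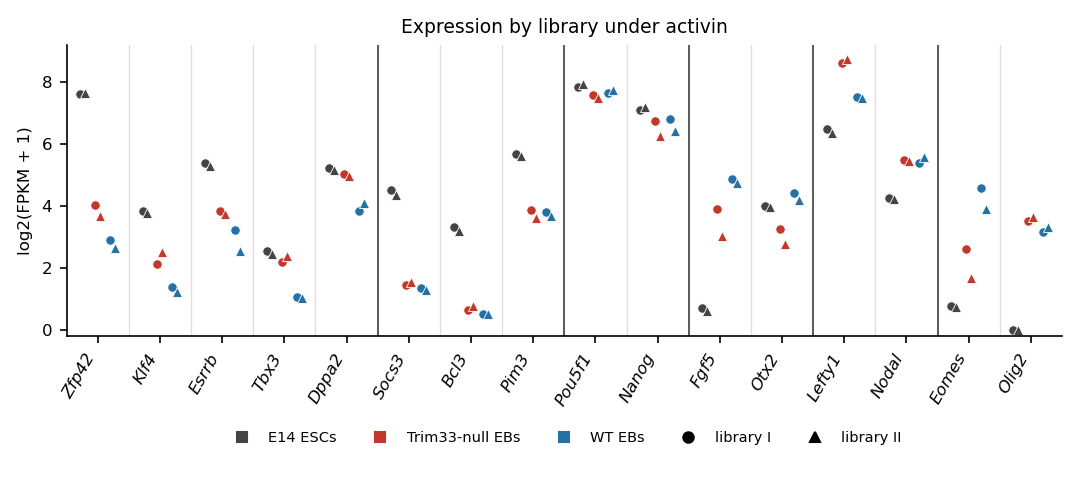
Level as log2(FPKM + 1) in each library of 16 genes of naive pluripotency, LIF signalling, core pluripotency, formative epiblast, Nodal signalling and early lineages, with circles for library I and triangles for library II. Zfp42 and Socs3 are highest in ESCs, Pou5f1 varies little between groups, and Lefty1 is highest in Trim33-null EBs.

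Of 12 genes of the LIF and STAT3 pathway tested, 8 fell and 1 rose, with a median of -0.93 in null EBs and -1.02 in WT EBs. The receptor genes Lifr (-1.23) and Il6st (-0.83), the kinase gene Tyk2 (-1.02) and Stat3 itself (-1.08) fell. Socs3, a feedback inhibitor that STAT3 induces, stood at 21.7 and 19.7 FPKM in ESCs and at 1.77 and 1.91 FPKM in null EBs, with WT EBs at 1.55 and 1.47 FPKM. All EB libraries lay below both ESC libraries, 11.3-fold in null EBs, and the log2 difference for null EBs was -2.93 ± 0.09 (SE; limma adjusted p = 0.000278). Bcl3, an atypical inhibitor of NF-kappaB and a STAT3 target, stood at 8.99 and 8.15 FPKM in ESCs and 0.556 and 0.705 FPKM in null EBs (-2.55 ± 0.10, limma adjusted p = 0.000345). Bcl3 passed the filter through ESCs alone, which set the direction of its fall. The kinase gene Pim3 stood at 49.8 and 48.4 FPKM against 13.6 and 11.2 FPKM (-1.91 ± 0.11, limma adjusted p = 0.000573). Its paralog Pim1 was not called (18.9 and 17 against 23.3 and 20.1 FPKM), nor were Jak1 and Ptpn11. Socs2 rose by 0.66 and Junb, an immediate early gene, fell by 0.67. The limma adjusted p of Socs2 was 0.0527 without ESC library I, and that of Junb was 0.183 and 0.148 without library I or II. None of the 12 differed between null and WT EBs by test in either fit (in the 6-library fit Ptpn11 had the lowest limma adjusted p, 0.0677).

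The Socs3 promoter is shown because Socs3 fell furthest in this pathway. The STAT motif TTCNNNGAA, which reads the same on both strands, was found in 1 of 11 pathway promoters of the same window and in 8.47% of 27025. The sequence is from RefSeq (GRCm38.p6), chr11:117969317-117969616, minus strand, 5′ to 3′, with the motif from base 97 in capitals.
Socs3: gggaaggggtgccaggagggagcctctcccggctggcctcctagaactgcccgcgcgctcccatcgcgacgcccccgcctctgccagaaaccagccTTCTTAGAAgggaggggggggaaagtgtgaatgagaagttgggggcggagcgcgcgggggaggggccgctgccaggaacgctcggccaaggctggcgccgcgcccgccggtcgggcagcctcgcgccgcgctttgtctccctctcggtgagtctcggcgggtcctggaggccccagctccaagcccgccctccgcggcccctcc

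Of 15 core pluripotency genes tested, 10 fell and 1 rose, with a median of -0.62, and 4 and 6 fell without ESC library I and II. Pou5f1, which encodes OCT4, stood at 229 and 243 FPKM in ESCs and 191 and 179 FPKM in null EBs (-0.35 ± 0.09, limma adjusted p = 0.0237). The groups did not overlap but lay close, and the limma adjusted p of Pou5f1 was 0.145 and 0.219 without ESC library I and II. Sox2 stood at 97.5 and 90.7 against 58.2 and 54.4 FPKM (-0.73 ± 0.09, limma adjusted p = 0.00292). The largest falls were in Foxd3, a forkhead repressor (-1.60), and Rest, a repressor of neuronal genes (-1.05). Sall4, Utf1, Lin28a and Zscan10 were not called, and Lin28a differed between the null libraries (86.7 and 52.3 FPKM).

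Of 18 formative and primed epiblast genes tested, 7 rose and 6 fell, with a median of 0.06, against 0.40 in WT EBs. Fgf5, a growth factor gene of the epiblast, stood at 0.637 and 0.537 FPKM in ESCs, 14 and 7.21 FPKM in null EBs, and 28 and 25.9 FPKM in WT EBs. Null EBs lay above ESCs (2.81 ± 0.28, limma adjusted p = 0.00159) and below WT EBs. Fgf5 and Cdh2, both counted as rises, were below 1 FPKM in both ESC libraries, so the filter set their direction. Otx2, a homeobox factor of the early epiblast, stood at 15 and 14.5, 8.62 and 5.82, and 20.4 and 17.4 FPKM in the same order. Null EBs thus held the lowest Otx2 of the groups, below ESCs by 0.96 (limma adjusted p = 0.00832, but 0.0618 and 0.0556 without ESC library I and II). Sall2 (1.68), Sox11 (0.68), Pou3f1 (0.61) and Dnmt3a (0.65) rose, and Tcf15 (-1.15) and Dnmt3l (-0.72) fell. For Pou3f1 and Dnmt3a the limma adjusted p was 0.165 and 0.0559 without ESC library I and 0.173 and 0.0729 without library II, and it was 0.0561 for Sox11 without library II and 0.0517 for Dnmt3l without library I.

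Against WT EBs, 10 of the 18 formative genes were lower and 3 higher in the 6-library fit, and 0 and 1 in the 4 EB libraries alone. The lower genes included Fgf5 (-1.33), Otx2 (-1.29) and Dnmt3b (-1.04), a de novo DNA methyltransferase gene. Dnmt3b stood at 77.6 and 68.1 FPKM in ESCs, 113 and 74.4 FPKM in null EBs, and 192 and 189 FPKM in WT EBs. Null library II overlapped ESCs, and Dnmt3b was not called against ESCs (0.33 ± 0.21, limma adjusted p = 0.228). Dnmt3l, a catalytically inactive cofactor of these enzymes, ran the other way, at 54.9 and 49, 31.6 and 30.7, and 11.2 and 11.2 FPKM. It was the gene called in both fits, 1.40 above WT EBs (limma adjusted p = 0.0032 and 0.0293).

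Of 10 secreted components of the Nodal pathway tested, 7 rose and 2 fell, with a median of 0.54 in both EB groups, and 4 and 3 rose without ESC library I and II. Nodal, the ligand, stood at 18.2 and 17.7 FPKM in ESCs, 44.2 and 43 FPKM in null EBs, and 40.6 and 46.7 FPKM in WT EBs. The EB groups overlapped and both lay above ESCs, by 1.24 ± 0.08 in null EBs (limma adjusted p = 0.00072). Lefty1, a secreted Nodal inhibitor that Nodal itself induces, stood at 89.2 and 81.4 FPKM in ESCs, 389 and 426 FPKM in null EBs, and 181 and 177 FPKM in WT EBs. Null EBs were highest, 4.78-fold above ESCs (2.24 ± 0.10, limma adjusted p = 0.000384). They were also above WT EBs by 1.18 ± 0.09, called in both fits (limma adjusted p = 0.00492 and 0.0411). With the receptor inhibitor SB431542 in place of activin, the null libraries held 36.2 and 29.8 FPKM of Lefty1. Lefty2, its paralog, stood at 56.5 and 57.1, 86.1 and 75.7, and 42 and 38.4 FPKM, so null EBs lay above both other groups (0.50 above ESCs, limma adjusted p = 0.0108). It was above WT EBs by 0.99 in the 6-library fit (limma adjusted p = 0.00735) and not in the 4 EB libraries alone (0.0527).

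Fst, which encodes the activin-binding protein follistatin, stood at 0.911 and 0.722 FPKM in ESCs and 16.3 and 8.07 FPKM in null EBs (2.79 ± 0.30, limma adjusted p = 0.00197). Fst passed the filter through null EBs alone, which set the direction of its rise. The convertase gene Furin rose by 0.57 while its relative Pcsk6 fell by 0.82, and both enzymes can process the Nodal precursor. Tdgf1, the Nodal co-receptor Cripto, rose by 0.36, and Inhbb, a subunit gene of activin B and inhibin B, fell by 0.89. Gdf3, a related ligand, was not called against ESCs (0.26) but was above WT EBs by 0.85 in the 6-library fit. Without ESC library I and II the limma adjusted p was 0.104 and 0.0983 for Lefty2, 0.073 and 0.0614 for Furin, 0.199 and 0.183 for Tdgf1, and 0.16 and 0.156 for Inhbb. The FOXH1 motif AATCCACA, searched on both strands, was in 0 of the 6 promoters matched and in 0.873% of all.

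Of 15 receptor and SMAD genes tested, 4 rose, close to the 25.5% of all genes, and 2 fell, beside 26.4% of all, with a median of -0.05. Foxh1, the forkhead partner of SMAD2, stood at 18.9 and 18.2 FPKM in ESCs and 32.5 and 32 FPKM in null EBs, without overlap (0.77 ± 0.08, limma adjusted p = 0.00198). Smad3 (0.62), the receptor gene Acvr2a (0.33) and the corepressor gene Ski (0.36) rose, while the corepressor gene Skil (-0.63) and Acvr2b (-0.37) fell. Smad2, Smad4 and the inhibitory Smad7 were not called, and Smad7 stood at 13.6 and 12.4 FPKM in ESCs and 11.9 and 13.2 FPKM in null EBs, with overlap. Foxh1 kept its call in every fit that left out a library. Without ESC library I the limma adjusted p was 0.0596 for Smad3, 0.132 for Acvr2a, 0.159 for Ski, 0.0642 for Skil and 0.188 for Acvr2b, and without library II it was 0.0718, 0.154, 0.253 and 0.159 for Smad3, Acvr2a, Ski and Acvr2b.

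Primitive streak and mesendoderm genes were at low levels. Only 5 of 15 passed the filter on low values, and 4 of these, T, Eomes, Wnt3 and Fgf8, rose. These 4 were below 1 FPKM in both ESC libraries, so they passed through null EBs alone and the filter set their direction. Eomes, a T-box factor of mesendoderm, stood at 0.705 and 0.678 FPKM in ESCs, 5.1 and 2.2 FPKM in null EBs, and 23 and 13.9 FPKM in WT EBs. Null EBs lay between the other groups without overlap, 1.39 ± 0.29 above ESCs (limma adjusted p = 0.0136, and 0.068 and 0.071 without ESC library I and II). Fgf8, a growth factor gene of the streak, followed the same order at 0.191 and 0.318, 8.81 and 3, and 28.6 and 17.6 FPKM (2.32 ± 0.41, limma adjusted p = 0.00767). T, which encodes Brachyury, stood at 0.295 and 0.292, 5.45 and 3.1, and 5.3 and 4.05 FPKM, with the EB groups overlapping. Wnt3, a ligand that starts the streak, stood at 0.895 and 0.933, 3.8 and 5.9, and 4.45 and 5.78 FPKM, again with overlap between EB groups. Against WT EBs, Eomes (-2.10) and Fgf8 (-1.91) were lower in the 6-library fit (limma adjusted p = 0.0185 and 0.0432) and neither was called in the 4 EB libraries alone (0.0775 and 0.124). Of the members under the filter, Gsc, a homeobox gene of the organizer, stood at 0.494 and 0.474 FPKM in null EBs and 2.71 and 1.62 FPKM in WT EBs. Foxa2 stood at 1.21 and 0.103 FPKM in null libraries I and II and at 0.0334 and 0.00648 FPKM in ESCs.

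Markers of other lineages were sparse. Of 12 neuroectoderm genes 3 were tested and 2 rose. Olig2, a basic helix-loop-helix factor, was listed at 0 in ESC library I and at 0.0063 FPKM in library II, and stood at 10.4 and 11.5 FPKM in null EBs and 8 and 9.08 FPKM in WT EBs. The EB groups did not overlap with ESCs, and null EBs under SB431542 held 5.39 and 5.91 FPKM. Olig2 passed the filter through null EBs alone, which set its direction. Sox3 rose by 1.97 and lay below WT EBs by 0.53 in the 6-library fit (limma adjusted p = 0.0253), while Sox1, Pax6 and Hes5, which define neural cells, stood at no more than 0.582 FPKM in all 4 libraries. Of 10 definitive endoderm genes 4 were tested and 3 rose, namely Cldn6 (1.28), Epcam (1.20) and Cxcr4 (1.00), which encode a tight junction protein, an adhesion molecule and a chemokine receptor. Cxcr4 likewise passed the filter through null EBs alone. Sox17 and Foxa1, which define endoderm, stood at no more than 0.244 FPKM in null EBs. Of 12 mesoderm genes, 3 were tested: Snai1 (1.28) and Etv2 (0.68) rose and Bmp4 (-1.22) fell. The filter set the direction of Etv2 in the same way. The limma adjusted p of Etv2 was 0.0777 and 0.11 without ESC library I and II. Of 15 extraembryonic endoderm genes 7 were tested and 3 rose, the basement membrane collagen genes Col4a1 (1.42) and Col4a2 (1.42) and the lipid carrier gene Apoe (1.47). The laminin gene Lamc1 fell by 0.85, and Lama1, Lamb1 and Sparc were not called. Col4a2 passed the filter through null EBs alone, which set its direction. Of the members of that list not tested, Afp, Ttr and Apoa1 stood at no more than 0.117 FPKM in null EBs. Others were low but above ESCs in both null libraries, at 1.11 and 0.886 against 0.132 and 0.136 FPKM for Pth1r, 0.995 and 0.655 against 0.15 and 0.144 FPKM for Dab2, and 1.02 and 0.666 against 0.37 and 0.273 FPKM for Amn. Hnf4a ran the other way, at 0.0502 and 0.0125 FPKM in null EBs and 0.127 and 0.0954 FPKM in ESCs. Gata4, an endoderm factor also under the filter, stood at 0.931 and 0.665 FPKM in null EBs and 0.119 and 0.11 FPKM in ESCs.

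**Figure D3:**
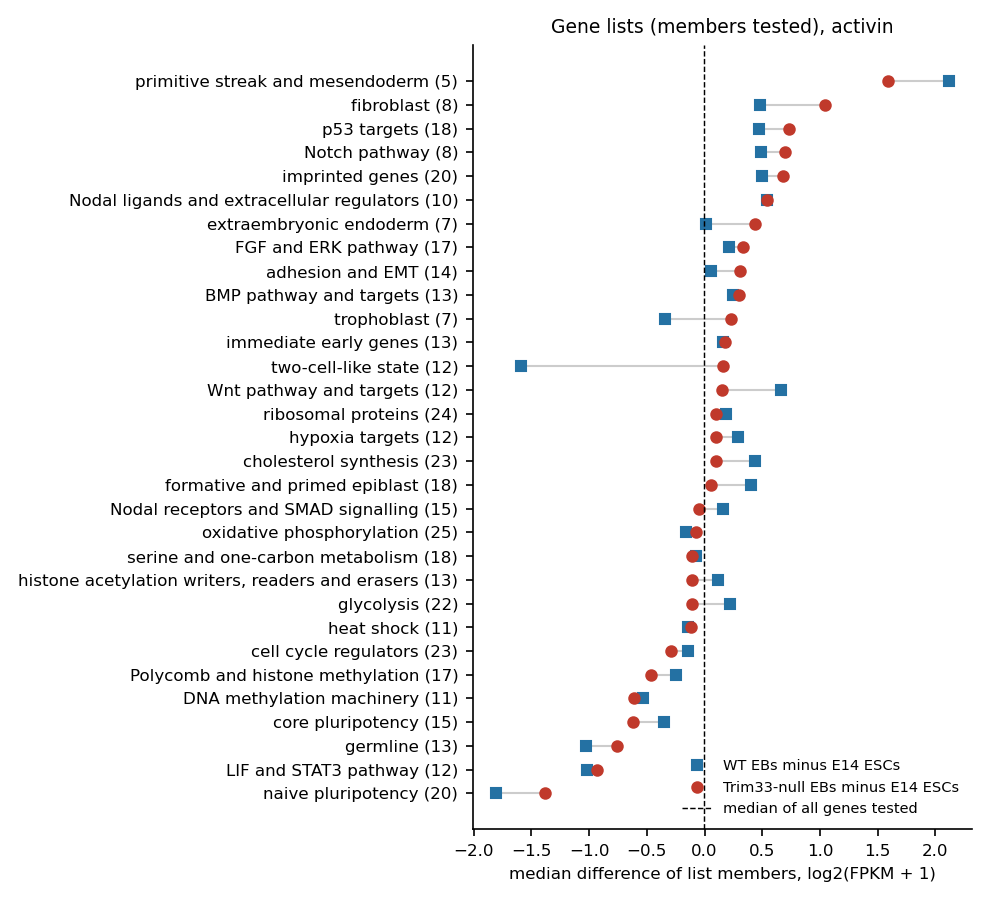
Median log2 difference from E14 ESCs of the tested members of each gene list with at least 5 of them, for Trim33-null EBs (red) and WT EBs (blue), with the number tested in parentheses and the dashed line at the median of all genes tested. The ESC libraries are shared by both differences. Naive pluripotency is lowest for both, and the 2-cell-like list has the widest gap, 0.16 against -1.59.

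Genes of the 2-cell-like state, a rare state of ESC cultures named for the embryo stage it resembles, were higher in null than in WT EBs, and most were not called between null EBs and ESCs. Of 12 tested against ESCs, 4 rose and 1 fell, with a median of 0.16 (-0.09 without null library I), whereas the median in WT EBs was -1.59. The 4 that rose, Tdpoz4, Usp17la, Usp17lc and Usp17le, were below 1 FPKM in all ESC and WT EB libraries. They passed the filter through null EBs alone, which set their direction against both groups. Zscan4c, which encodes a zinc finger protein of that state, stood at 15.7 and 17.4 FPKM in ESCs, 23.4 and 12.9 FPKM in null EBs, and 5.46 and 1.22 FPKM in WT EBs. Null EBs overlapped ESCs and both lay above WT EBs. Of the 12 genes, 11 were above WT EBs in the 6-library fit and 3 in the 4 EB libraries alone, namely Tcstv1 (1.06), Tcstv3 (1.24) and Tdpoz4 (0.99), with limma adjusted p of 0.0496, 0.0496 and 0.049. Gm4340 had the largest difference (2.87) and stood at 65.5 and 42.2 FPKM in null EBs and 11.6 and 3.24 FPKM in WT EBs. Fragments of these multicopy genes can be shared between near-identical members, so single values are uncertain. Tdpoz4 rose against ESCs by 0.37, with a limma adjusted p of 0.149 and 0.0953 without ESC library I and II.

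Of 13 germline genes tested, 9 fell and 2 rose, with a median of -0.76 (-1.03 in WT EBs), and 5 fell without ESC library II. Hormad1 (-1.79), Sycp3 (-1.12) and Mael (-1.08), which act in meiotic chromosome pairing and the piRNA pathway, fell. Hormad1 stood at 4.92 and 6.16 FPKM in ESCs and 1.18 and 0.624 FPKM in null EBs, and WT EBs were at 1.71 and 1.07 FPKM. Tex19.1, a placental and germline gene, stood at 45.5 and 43.7 FPKM in ESCs, 26.1 and 34.6 FPKM in null EBs, and 9.42 and 9.71 FPKM in WT EBs. Null EBs stood between the other groups, and the difference from WT EBs (1.56 ± 0.13) was called in both fits (limma adjusted p = 0.00601 and 0.0496). Dmrt1 rose by 0.96 and Taf7l by 0.72. Of the genes that fell, Dazl, Stk31, Slc25a31 and Piwil2 were below 1 FPKM in both null libraries, and Taf7l was below it in both ESC libraries. The filter set the direction of these genes. The limma adjusted p was 0.0907 and 0.0913 for Dmrt1 and 0.152 and 0.125 for Tex19.1 without ESC library I and II, and 0.0548 for Sycp3 without library II.

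Of 11 DNA methylation genes tested, 6 fell and 2 rose, with a median of -0.61. Tet1 and Tet2, which encode enzymes that oxidise methylcytosine, fell by 1.88 and 1.62, and Tet1 stood at 21.7 and 20.6 FPKM in ESCs and 5.51 and 4.58 FPKM in null EBs. The maintenance genes Dnmt1 (-0.79), Uhrf1 (-0.61) and Hells (-1.05) fell, while Dnmt3a and Tdg, a glycosylase gene (0.70), rose. The limma adjusted p of Uhrf1 was 0.153 and 0.0742 without ESC library I and II, and it was 0.0654 for Dnmt1 without library I and 0.0556 for Tdg without library II. Of 17 Polycomb and histone methylation genes 9 fell and 1 rose (5 fell without ESC library I), among them Kdm3a (-1.36), Eed (-1.33), Jarid2 (-1.26), Mtf2 (-1.14) and Ezh2 (-0.69). Eed, Jarid2, Mtf2 and Ezh2 belong to Polycomb repressive complex 2, and their companion Suz12 was not called (24.9 and 26.1 against 29.8 and 29.9 FPKM). Suz12 was above WT EBs by 0.73 in the 6-library fit (limma adjusted p = 0.0106). The gene that rose, Suv39h1, encodes a methyltransferase of heterochromatin and stood at 1.95 and 1.74 FPKM in ESCs and 10 and 8.65 FPKM in null EBs (1.86 ± 0.10, limma adjusted p = 0.000502).

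Of 20 imprinted genes tested, 10 rose and 5 fell, with a median of 0.68 (0.50 in WT EBs). H19, a maternally expressed non-coding RNA, stood at 0.288 and 0.272 FPKM in ESCs, 20.3 and 24.7 FPKM in null EBs, and 16.2 and 20.5 FPKM in WT EBs. The EB groups overlapped and both stood well above ESCs (4.19 ± 0.11 in null EBs, limma adjusted p = 0.000198). Nnat (3.73), Mest (2.79), Plagl1 (1.92), Ndn (1.44), Peg3 (1.28) and Igf2 (1.25) also rose. H19, Nnat, Mest and Plagl1 were below 1 FPKM in both ESC libraries, so the filter set the direction of their rises. The Dlk1-Dio3 transcripts Meg3, Rian and Mirg ran the other way. Rian stood at 12.8 and 12.6 FPKM in ESCs, 4.29 and 3.31 FPKM in null EBs, and 15.4 and 10.1 FPKM in WT EBs, so only null EBs stood apart. Rian, Meg3 and Mirg fell against ESCs by 1.52, 0.71 and 0.68 and differed from WT EBs by -1.50, -1.34 and -0.81 (6-library limma adjusted p = 0.0107, 0.0106 and 0.0185), and none of the 3 was called in the 4 EB libraries alone (0.0562, 0.055 and 0.0731). Mirg was below 1 FPKM in both null libraries, so the filter set the direction of its fall against ESCs. Meg3 lost its call against ESCs without ESC library I (limma adjusted p = 0.0599). Grb10, an imprinted adaptor gene, differed between the null libraries, at 12.4 and 1.67 FPKM, and was not called (11.9 and 10.8 FPKM in ESCs).

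Of 13 fibroblast genes 8 were tested, 5 rose and 1 fell, with a median of 1.04, which was -0.62 with a filter of 5 FPKM, and 1 rose without ESC library I or II. Col1a1, a collagen gene of mesenchymal cells, stood at 0.395 and 0.264 FPKM in ESCs, 2.73 and 8.98 FPKM in null libraries I and II, and 1.02 and 2.49 FPKM in WT libraries I and II. Col1a1, Col1a2, Dcn and Twist1 were below 1 FPKM in both ESC libraries, so the filter set the direction of their rises. Library II was the higher of the pair for all 8 tested members in null EBs, with a median gap of 0.60. Summed over all 13, tested or not, null libraries held 37.9 and 66 FPKM, ESCs 44.2 and 44.3, and WT EBs 36.8 and 41.4. Of the defining markers under the filter, Lum was listed at 0.00954 and 0 FPKM in ESCs and stood at 0.532 and 1.68 FPKM in null EBs, while Acta2, a contractile gene, fell by 0.76. Mgp, which encodes matrix Gla protein, stood at 0.0331 FPKM in ESC library I and was listed at 0 in library II, against 17.8 and 62 FPKM in null EBs and 6.24 and 22.7 FPKM in WT EBs. Without ESC library I and II the limma adjusted p was 0.0561 and 0.0638 for Col1a1, 0.0651 and 0.0712 for Col1a2, 0.0538 and 0.0542 for Dcn, and 0.153 and 0.151 for Thy1. The remaining untested markers, Col3a1, Twist2, Prrx1 and Postn, stood at no more than 0.0319 FPKM in ESCs and were, of the activin libraries, likewise highest in null library II. The part of fibroblast cells in these values was not tested.

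Of 18 p53 targets, 13 rose and 1 fell, with a median of 0.73 (0.47 in WT EBs), and 5 rose without ESC library I or II. Pmaip1, which encodes the BH3-only protein NOXA, stood at 5.48 and 5.52 FPKM in ESCs, 74.3 and 99.3 FPKM in null EBs, and 70.2 and 79.4 FPKM in WT EBs. The EB groups overlapped and lay above ESCs (3.74 ± 0.15 in null EBs, limma adjusted p = 0.000354). Cdkn1a, which encodes the cell cycle inhibitor p21, stood at 13.1 and 12.5, 42.3 and 73.8, and 24.2 and 41.4 FPKM (2.04 ± 0.26, limma adjusted p = 0.00292). Plk2 (1.96), Trp53inp1 (1.83), Mdm2 (1.61) and Phlda3 (1.55) rose as well. In null EBs library II was higher than library I for 16 of the 18, with a median gap of 0.63. None of the 18 was called between null and WT EBs in either fit, although 16 of 18 were nominally higher (the lowest 6-library limma adjusted p was 0.108, for Plk2). Cdkn2b and Cdkn2a, which encode p15 and p16/p19ARF, rose by 1.88 and 1.23 and were again highest in null library II (9.92 and 7.28 FPKM against 3.61 and 3.47 in library I). Without ESC library I and II the limma adjusted p was 0.0637 and 0.0674 for Mdm2, 0.0656 and 0.063 for Cdkn2b, and 0.0914 and 0.077 for Cdkn2a.

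**Figure D4:**
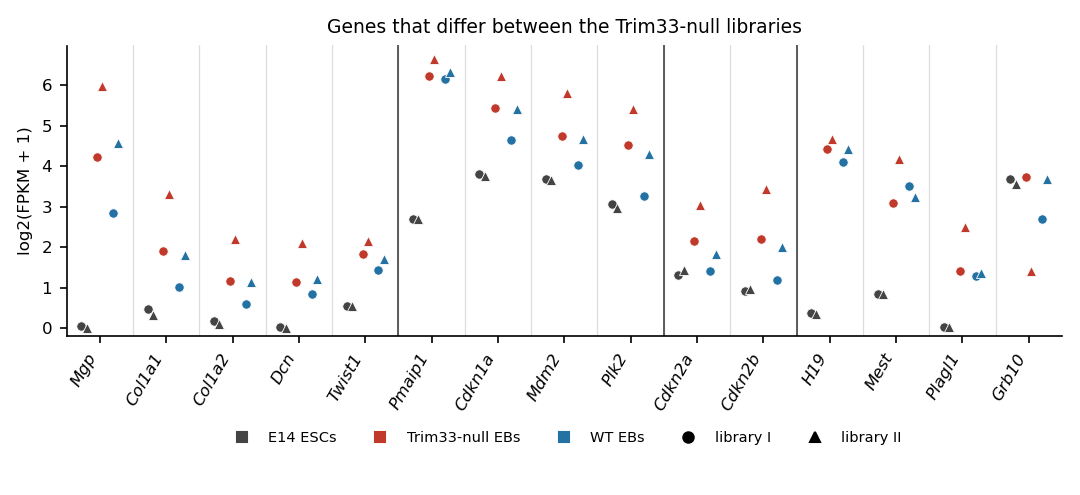
Level as log2(FPKM + 1) in each library of 15 fibroblast, p53 target, cell cycle inhibitor and imprinted genes, with circles for library I and triangles for library II. Null library II is the highest for Mgp, Col1a1, Mdm2, Plk2 and Cdkn2b, and the lowest for Grb10.

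Of 23 cell cycle regulators 11 fell and 6 rose, with a median of -0.29, and the rises included the inhibitors Cdkn1a, Cdkn2a and Cdkn2b. Mycn, a growth-promoting transcription factor gene of ESCs, stood at 59.9 and 55.1 FPKM in ESCs and 21 and 16.5 FPKM in null EBs (-1.57 ± 0.13, limma adjusted p = 0.00113). Ccnd1 fell by 1.07 and Ccne1 by 0.94, while Cdk4 rose by 0.40 (limma adjusted p of Cdk4 without ESC library I and II, 0.132 and 0.133). Housekeeping lists stayed near the median of all genes. Of 24 ribosomal protein genes 3 rose and 0 fell (median 0.10), and of 25 oxidative phosphorylation genes 1 rose and 5 fell (-0.07). Of 22 glycolysis genes 5 rose and 5 fell (-0.11), beside 25.5% and 26.4% of all genes tested. Ldhb, a lactate dehydrogenase subunit gene, rose by 1.53 and Pfkp, a phosphofructokinase gene, fell by 1.71. Of 18 serine and one-carbon genes 3 rose and 7 fell (-0.11). Tdh, the threonine dehydrogenase gene that mouse ESCs depend on, stood at 97.6 and 87.6 FPKM in ESCs, 42.4 and 42.6 FPKM in null EBs, and 26.2 and 20.6 FPKM in WT EBs. It fell by 1.10, as did Gldc of the glycine cleavage system by 1.22, while the stress factor gene Ddit3 rose by 1.51. Of 12 hypoxia targets 5 rose and 0 fell (0.10), led by Ddit4 (2.06) and Egln3 (1.13). Of 11 heat shock genes 1 rose and 2 fell (-0.12).

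Other signalling pathways held rises and falls. Of 17 FGF and ERK genes 9 rose and 5 fell (median 0.33), with Fgfr1 (0.96), Spry2 (1.00) and Dusp6 (0.77), a receptor and feedback inhibitors, rising as Fgf4 fell. Of 13 BMP genes 7 rose and 3 fell (0.30, but -0.14 with a filter of 5 FPKM). The target gene Id1 stood at 74.3 and 76.1 FPKM in ESCs and 27 and 37.9 FPKM in null EBs (-1.21 ± 0.17, limma adjusted p = 0.00385), and the ligand gene Bmp7 rose by 1.24. Of 12 Wnt genes 4 rose and 2 fell (0.15). Wnt8a, a ligand of the streak and posterior epiblast, stood at 0.658 and 0.514 FPKM in ESCs, 18.2 and 10.6 FPKM in null EBs, and 18.2 and 13.5 FPKM in WT EBs (3.23 ± 0.24, limma adjusted p = 0.000884). The Wnt target Sp5 was not called (2.26 and 1.91 against 2.99 and 1.55 FPKM). Of 8 Notch genes 5 rose and 2 fell (0.70), with the ligand gene Dll1 (1.28), the receptor gene Notch3 (1.00) and the target gene Hes1 (0.84) rising and the effector gene Rbpj falling (-1.10). Dll1 stood at 0.688 and 0.558 FPKM in ESCs, 2.92 and 2.97 FPKM in null EBs, and 0.808 and 1.33 FPKM in WT EBs, and it was above WT EBs by 0.94 in the 6-library fit (limma adjusted p = 0.0113). In these FGF, BMP, Wnt and Notch lists, Fgf5, Fgf8, Fgfr2, Bmp7, Bmpr2, Msx1, Wnt3, Wnt8a and Dll1 were below 1 FPKM in both ESC libraries. Notch1, which fell, was below 1 FPKM in both null libraries. The filter set the direction of these genes against ESCs. Of 13 immediate early genes 6 rose and 5 fell (0.18, but -0.59 with that filter), among the latter Egr1 (-1.52). Of the remaining lists, 5 of 14 adhesion genes rose and 1 fell, 7 of 23 cholesterol synthesis genes rose and 2 fell, 3 of 7 trophoblast genes rose and 2 fell, and 0 of 13 histone acetylation genes rose and 4 fell. Of all genes tested 25.5% rose and 26.4% fell, and several counts in this paragraph are near these shares.

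Hprt, the X-linked purine salvage gene, stood at 0.123 and 0.149 FPKM in ESCs, 46.3 and 81.7 FPKM in null EBs, and 38.8 and 43.2 FPKM in WT EBs. It had the largest rise of all genes tested, 5.78 ± 0.26 (SE; limma adjusted p = 0.000389), and sublines of E14 are known to carry a deletion in Hprt, whose part in this value was not tested. Y-linked genes separated the EB lines. Eif2s3y, a translation factor gene, stood at 9.42 and 10.4 FPKM in ESCs and 9.49 and 9.82 FPKM in WT EBs, but at 0.0922 and 0.324 FPKM in null EBs (-3.18 ± 0.12, limma adjusted p = 0.000354). Ddx3y and Uty showed the same order, with differences of -2.24 and -1.27, and all 3 were below WT EBs in both fits. Zfy1 and Zfy2 were listed at 0 in both null libraries, and Kdm5d stood at no more than 0.0188 FPKM in ESCs and null EBs against 0.659 and 0.751 FPKM in WT EBs. Xist, the RNA of X inactivation, stood at 0.147 and 0.301 FPKM in null EBs, 0.0431 and 0.042 FPKM in ESCs, and 0.12 and 0.116 FPKM in WT EBs. The null and WT EB lines therefore differ in Y-linked expression as well as in Trim33, and the part of this difference in the other differences was not tested.

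Grouped by chromosome, the 10727 tested genes with a location did not move evenly. The 369 genes of chromosome X had a median of 0.25, with 35.5% higher and 15.2% lower. The 468 genes of chromosome 6 had a median of 0.15, with 33.1% higher and 14.5% lower. The other 18 chromosomes besides Y had medians from -0.10 to 0.04, with 20.7% to 27.2% of genes higher. By library, chromosome 6 stood at 0.18 and 0.13 in null libraries I and II and at 0.04 and 0.03 in the WT EB libraries. Chromosome X stood at 0.13 in null library I and 0.36 in library II, against 0.09 and 0.06 in WT EBs. Under SB431542 the null libraries had the same pattern, 0.19 and 0.14 for chromosome 6 and 0.16 and 0.38 for chromosome X. Against WT EBs in the 6-library fit, 12.7% of X-linked genes and 9.62% of genes on chromosome 6 were higher, beside 1.94% to 6.6% on the other 18 chromosomes besides Y.

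**Figure D5:**
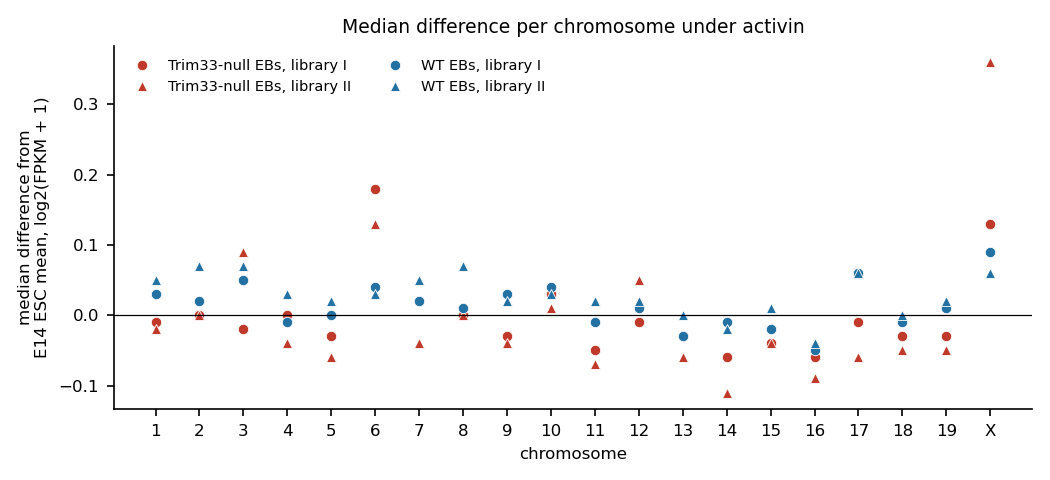
Median log2 difference from the ESC mean of tested genes on each chromosome, for each Trim33-null (red) and WT (blue) EB library, with circles for library I and triangles for library II. Chromosome Y, with 4 genes and a median of -1.75 in null EBs, is left off. Chromosome 6 is raised in both null libraries and chromosome X most in null library II.

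The largest rises among annotated genes with at least 5 FPKM in the higher group were, after Hprt and Mgp, those of H19, Cthrc1 (3.79), Sos2 (3.77), Pmaip1, Nnat, Olig1 (3.68), Ube2l6 (3.64), Olig2 (3.57), Tmem254b and Tmem254c (both 3.55). Cthrc1 encodes a secreted collagen triple helix protein, Sos2 a Ras exchange factor and Olig1 a neighbour and relative of Olig2. Tmem254b and Tmem254c are near-identical copies whose fragments may be shared, so their values are uncertain. Of these 12 genes, 2 also differed from WT EBs in the 6-library fit. Cthrc1 stood at 18 and 20.4 FPKM in null EBs and 11.9 and 11.3 FPKM in WT EBs. Ube2l6, which encodes an enzyme of ISG15 conjugation, stood at 5.59 and 4.91 FPKM in ESCs, 51 and 115 FPKM in null EBs, and 9.86 and 10.1 FPKM in WT EBs. It was raised in both null libraries and more in II, and the difference from WT EBs was 2.83 ± 0.34 (6-library limma adjusted p = 0.0101, and 0.055 in the 4 EB libraries alone). Among predicted gene models, which were left out of this ranking and are named here after their values were seen, Gm12139 had 83.2 and 87.3 FPKM in ESCs, 1141 and 2829 FPKM in null EBs and 181 and 174 FPKM in WT EBs.

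The largest falls included, after Zfp42 and Eif2s3y, those of Tgm1, Socs3, Glrx (-2.87), Calml4 (-2.84), Hsd17b14 (-2.80), Morc1 (-2.66), Laptm5 (-2.65), Glod5 (-2.61) and Ly6g6e (-2.60). Tgm1, which encodes a transglutaminase, stood at 10.8 and 9.35 FPKM in ESCs and 0.428 and 0.33 FPKM in null EBs. Glrx encodes a glutaredoxin, Hsd17b14 a steroid dehydrogenase and Morc1 a germline ATPase. For each of these genes but Eif2s3y, the log2 difference of WT EBs from ESCs was between -4.85 and -2.64. Laptm5, a lysosomal membrane protein gene, stood at 18.6 and 22 FPKM in ESCs, 2.43 and 2.32 FPKM in null EBs, and 0.426 and 0.464 FPKM in WT EBs. It was above WT EBs by 1.22 ± 0.09 in both fits (limma adjusted p = 0.00501 and 0.0293). The predicted gene Gm26818, named after its values were seen, had 59.7 and 52.2 FPKM in ESCs and 0.47 and 0.602 FPKM in null EBs.

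The largest differences from WT EBs, by the same limits, were those of Ube2l6, Tcte2, Prss35, Zscan4f, Zscan4c and Serpina3m above and of Eif2s3y, Ddx3y, Eomes, Fgf8, Trim33 and Ccrn4l below. Tcte2 stood at 24.2 and 64.4 FPKM in null EBs, 4.66 and 4.86 FPKM in WT EBs and 3.87 and 3.42 FPKM in ESCs. Prss35, a serine protease-like gene, stood at 6.85 and 20.5, 1.6 and 1.2, and 1.49 and 1.22 FPKM in the same order. Both genes were raised in each null library, with library II the higher. Serpina3m, a serine protease inhibitor gene, stood at 10.3 and 7.72 FPKM in null EBs, 2.47 and 0.367 FPKM in WT EBs and 0.00576 and 0.00893 FPKM in ESCs. Ccrn4l, which encodes the deadenylase nocturnin, stood at 29 and 36.7 FPKM in null EBs, 131 and 78.9 FPKM in WT EBs and 39.6 and 41.5 FPKM in ESCs. Null EBs were below WT EBs by 1.61 ± 0.23 and did not differ from ESCs by test (-0.31, limma adjusted p = 0.103). Of these 12 genes, Eif2s3y, Ddx3y and Trim33 were also called in the 4 EB libraries alone. The other 9 were not called without ESC library I or II either, with limma adjusted p from 0.0547 for Ube2l6 to 0.124 for Fgf8.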

How the data were processed

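RNA-seq libraries of total RNA from mouse cells were quantified by the authors as FPKM per gene, and these deposited values were used as they stand. The submitters' processing notes name CASAVA 1.8, STAR 2.4.0, Bowtie2 2.2.2 and Cufflinks 2.2.1 and the build mm9, without saying which served RNA-seq, so near-identical copies may share fragments. Of 29145 entries, 113 repeats of a symbol were left out. Genes reaching 1 FPKM in 2 or more of the 4 libraries were tested on log2(FPKM + 1) with limma 3.58.1 in R 4.3.3 (empirical Bayes with an intensity trend, Benjamini-Hochberg adjustment over all 11070 genes, threshold 0.05). A fit of 6 activin libraries, and one of the 4 EB libraries, gave null minus WT EBs. FPKM gives no counts, so relative depth was sought in the most common ratio between low values of a library and of ESC library I. In the other libraries of the main comparison, only 7.79% to 14.5% of such pairs lay near that ratio. Depth and counting error are therefore unknown. On simulated data, limma recovered 89% of 100 genes changed by 1 and 100% of 100 changed by 2 on the log2 scale, with 1 false call of 190. The simulated noise was independent between libraries, with a spread smoothed over genes of like level. Far fewer genes were changed than the 5744 called in the data. The simulation therefore does not measure false calls in the data.

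The members and gene lists were chosen with earlier results of these data known. Named genes are list members, the 12 largest rises and 12 largest falls with at least 5 FPKM in the higher group and no overlap, and the 6 largest differences each way from WT EBs. Predicted models and clone names were left out, including a few name patterns and date-like symbols that the written rule did not spell out. A few items that the rule names are not reported here. Alternatives were other filters, pseudocounts, scalings, sets of libraries, a replicate block and leaving out each library. Promoters came from RefSeq (GRCm38.p6) and matched 77.5% of genes tested, under the 80% needed, so a comparison of promoter base composition is void. Chromosomes were found for 10727 genes.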

Additional observations from a re-analysis of the deposited data

Results flagged for a closer look

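Null and WT EBs differed in these genes, since null minus WT EBs passed the limma test in the fit of 6 activin libraries. The EB lines are not shown to differ in Trim33 alone, so these differences are not assigned to genotype. The ESC libraries are the same for both EB groups, and each value is the log2 difference of null from WT EBs. Genes that also passed in the 4 EB libraries alone were Tbx3 (1.22), Dnmt3l (1.40), Lefty1 (1.18), Trim33 (-1.76), Eif2s3y (-3.15), Ddx3y (-2.46), Uty (-1.23), Tex19.1 (1.56), Tcstv1 (1.06), Tcstv3 (1.24), Tdpoz4 (0.99) and Laptm5 (1.22).

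Genes higher in null EBs that passed in the 6-library fit alone were Zfp42 (1.08), Klf4 (1.02), Esrrb (0.90), Nr0b1 (0.79), Dppa5a (0.74), Dppa2 (1.02), Dppa4 (0.71), Tcf15 (0.98), Lefty2 (0.99), Gdf3 (0.85), Suv39h1 (0.48), Zscan4c (2.28), Zscan4f (2.32), Mael (0.43), Taf7l (0.53), Suz12 (0.73), Gm4340 (2.87), Bmp4 (0.43), Snai1 (0.50), Apoe (0.57), Bmp7 (0.67), Dll1 (0.94), Tdh (0.84), Cthrc1 (0.68), Ube2l6 (2.83), Tcte2 (2.82), Prss35 (2.44) and Serpina3m (2.19). Genes lower in null EBs that passed in that fit alone were Fgf5 (-1.33), Otx2 (-1.29), Dnmt3b (-1.04), Sall2 (-0.88), Sox11 (-0.43), Acvr2b (-0.54), Eomes (-2.10), Fgf8 (-1.91), Sox3 (-0.53), Meg3 (-1.34), Rian (-1.50), Mirg (-0.81), Ccnd1 (-0.40) and Ccrn4l (-1.61). Several are near-identical copies (the Zscan4, Tcstv and Tdpoz genes and Gm4340), whose single values are uncertain. Tdpoz4, Taf7l and Bmp7 were below 1 FPKM in all ESC and activin-treated WT EB libraries, so the filter set their direction. Y-linked genes differ between the EB lines in every library, and the part of line differences in the other values was not tested.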

How the results depend on the processing

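No named gene that was called as reported changed sign under the alternatives tried. List medians turned for mesoderm (-1.22), trophoblast (-0.12), fibroblast (-0.62), BMP (-0.14) and immediate early genes (-0.59) with a filter of 5 FPKM. They also turned without null library I for receptors and SMADs (0.02), 2-cell-like (-0.09), cholesterol (-0.04) and hypoxia genes (-0.05), and without library II for glycolysis (0.06) and immediate early genes (-0.14). The balance of calls turned as well. Null EBs against ESCs had 2819 higher and 2925 lower, but 2880 and 2815 after median-of-ratios scaling and 4148 and 3179 with no filter. Null against WT EBs had 539 higher and 486 lower, but 607 and 821 with all 10 libraries. Between null EBs and ESCs, the count of 5744 calls moved to 2971 with a filter of 5 FPKM and ran from 1991 to 7608 when a library was left out, lowest without an ESC library. With a filter of 5 FPKM fewer members were tested, and 4 LIF genes fell, 4 germline genes fell and 0 fibroblast genes rose. With a library left out, members called lower ran from 13 to 18 for naive, 7 to 8 for LIF, 4 to 12 for core, 5 to 10 for germline and 5 to 11 for Polycomb genes. Members called higher ran from 3 to 8 for secreted Nodal, 8 to 12 for imprinted, 5 to 16 for p53 and 1 to 6 for fibroblast genes. Between null and WT EBs, 1025 calls became 47 in the 4 EB libraries alone, 473 with a filter of 5 FPKM and 630 with none, and 41 to 3217 with a library left out. A filter of 5 FPKM tests fewer genes, and a fit without a library takes its spread only from the groups that keep both libraries. The cause of these changes was not tested further.

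Column numerals are shared across groups, but no label says that they pair samples. With them as a replicate block, 5475 genes were called between null EBs and ESCs and 1237 between null and WT EBs. Single-gene results against ESCs were counted per gene and setting, so a gene can count more than once. Under settings that kept all libraries of both groups, 1520 were the same, 19 lost a call and 3 gained one. Some genes also lost a call with a library left out, as given with their values. With 2 libraries a group and no read counts, depth and culture-to-culture spread are not known.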
